A study of Mus musculus with 99 samples.

Results

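From the KCNQ and KCNE families of potassium channel subunits, 7 genes were examined in single cochlear hair cells, namely the pore subunit genes Kcnq1, Kcnq3 and Kcnq5, and the accessory subunit genes Kcne1, Kcne2, Kcne3 and Kcne4. They were taken by name from a table of 55291 genes, all 7 were found there, and the rule that names them uses no measured value. Other genes of the 2 families were not analysed here.

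The table holds full-length cDNA reads of 99 hand-picked cells from C57BL/6 mice. The first group held 32 wild-type outer hair cells (OHCs) of postnatal day 30, with the genotype Slc26a5-CreER/+; Ai9/+. The second held 67 cells of postnatal day 42, with the genotype Slc26a5-CreER/+; Rosa26Tbx2/+. These are OHCs in which an inducible Cre, driven from the prestin gene Slc26a5, switches on ectopic Tbx2, and the labels call them converted inner hair cells (cIHCs). Both groups carry the Cre and were picked by tdTomato fluorescence, so age, the Ai9 and Rosa26Tbx2 alleles and Tbx2 expression differ together. These cannot be told apart. Sex-linked reads differed between the groups as well. Xist reads at 10 CPM or more marked 55 of 67 cIHCs and 4 of 32 OHCs. Y-linked reads at that level marked 12 cIHCs and 24 OHCs, so sex goes largely with the group. No group of endogenous inner hair cells was analysed here. The labels name no animal, so the cells of a group count as 1 sample, differences carry no check over animals, and nothing was tested.

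KCNQ proteins form voltage-gated potassium channels that open at low depolarisation and do not inactivate quickly, which makes them brakes on excitability and pathways for potassium flow. KCNQ1 with its accessory subunit KCNE1 secretes potassium into the endolymph from the marginal cells of the stria vascularis, and KCNQ3 and KCNQ5 take part in the M current of neurons. The KCNE proteins have a single transmembrane segment. They change the gating of KCNQ1 in different ways, KCNE3 holding it open in epithelia and KCNE4 inhibiting it.

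Sequence upstream of the start sites is shown for 2 genes only: Kcne3, the accessory subunit gene with reads in several cIHCs, and Kcne2, which holds the only match to a T-box motif among the members searched. All come from RefSeq's GRCm38.p6 windows and read 5′ to 3′ in the direction of the gene. The Kcne3 window of the first start site is cut where the first exon annotated in GENCODE M21 begins, and capitals mark the match.
Kcne3, first start site, chr7:100176420-100176501, plus strand: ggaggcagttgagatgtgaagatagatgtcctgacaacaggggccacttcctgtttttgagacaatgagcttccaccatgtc
Kcne3, second start site, chr7:100178433-100178682, plus strand: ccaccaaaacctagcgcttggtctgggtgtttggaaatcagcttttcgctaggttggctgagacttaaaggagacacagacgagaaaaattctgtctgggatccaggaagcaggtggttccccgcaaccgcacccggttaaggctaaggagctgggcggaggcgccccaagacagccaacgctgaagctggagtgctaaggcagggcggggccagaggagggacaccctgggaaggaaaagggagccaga
Kcne2, second start site, chr16:92295366-92295615, plus strand: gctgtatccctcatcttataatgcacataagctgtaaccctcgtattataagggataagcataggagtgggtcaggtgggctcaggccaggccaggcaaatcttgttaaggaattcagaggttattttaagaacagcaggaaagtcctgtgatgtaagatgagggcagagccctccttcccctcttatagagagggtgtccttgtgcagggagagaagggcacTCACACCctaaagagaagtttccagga

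The motif searched was the T-box core GGTGTGA, on both strands, in the 250 bases before each start site. Windows were found for 4 of the 7 members (Kcnq5, Kcne2, Kcne3 and Kcne4), and 1 of their 7 windows held the motif, as TCACACC 27 bases before the second Kcne2 start site. Over all 32851 windows of this length 3.33% held it. The Kcne2 match is a description of letters, and Kcne2 had 1 read in all cells.

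Depth and identity of the cells bear on every value below. A cell held 5656512 to 9287413 counts among the OHCs and 4677682 to 13792672 among the cIHCs, but the cIHCs had more genes with reads, a median of 8546 against 6068.5. Pooled levels are a group's summed counts scaled to its total (CPM, counts per 1e6), over 242054710 counts in OHCs and 544012348 in cIHCs. Intervals are 95%. Those of levels and ratios cover counting error of reads only, and those of shares treat each cell as a separate draw. Reads of amplified cDNA carry no molecular identifiers and are not separate molecules, and cells are not replicates. The intervals may thus be too narrow, and they cover no spread between animals. Tbx2 had reads in 67 of 67 cIHCs at 112.7 to 2643 CPM and stood at no more than 0.123 CPM in any OHC. Its counts do not separate ectopic from endogenous transcripts. The OHC gene Slc26a5 ran from 994.4 to 2913 CPM in OHCs and reached no more than 13.3 CPM in a cIHC.

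In OHCs the 7 genes were close to silent: together they had 2 reads in 32 cells. All 7 had no more than 3 counts in the OHC sum, as 45.3% of all 21535 protein-coding genes did. In cIHCs, Kcnq3, Kcne3 and Kcnq1 had reads, but in few cells, and the other 4 members were again at or under 3 counts, as 34.8% of protein-coding genes were. That pattern, at or under 3 counts in OHCs and over 3 in cIHCs, held for 3 of 7 members and for 12.9% of protein-coding genes. The reverse held for 0 members and 2.38%. The limit was the same for both sums, but the cIHC sum held 544012348 counts and the OHC sum 242054710. It is thus easier to pass in cIHCs, and the part of depth in these shares was not tested. Kcne1 and Kcne4 had no read in any of the 99 cells, and 26.4% of protein-coding genes had none either.

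Levels by cell show how few cells carried these genes. Of 67 cIHCs, 50 had no read of any member, 14 had reads of 1 member and 3 had reads of 2. A level of 10 CPM or more of any member was reached in 10 cIHCs and in 0 of 32 OHCs, and in 1 cIHC by 2 members.

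**Figure D1:**
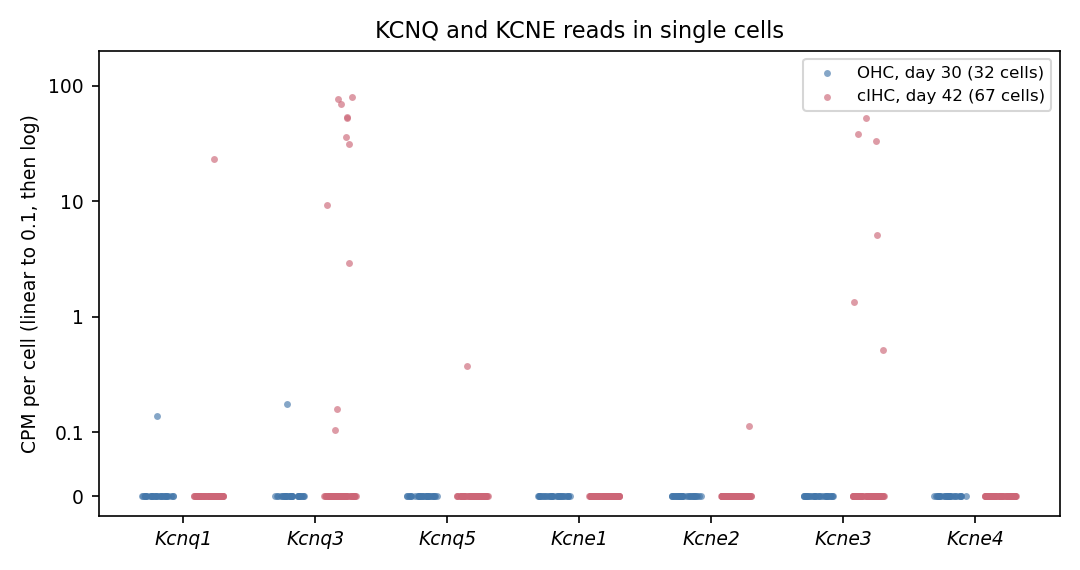
CPM of each member in each cell, on an axis that is linear up to 0.1 CPM and logarithmic above; each point is 1 cell, blue for the 32 OHCs and red for the 67 cIHCs. Kcnq3 and Kcne3 show separate groups of cIHCs between 30 and 81 CPM above a large majority at 0, and the 2 OHC points above 0 are single reads.

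Among the pore subunits, Kcnq3 had the highest read count. Kcnq3 lies on chromosome 15 (GRCm38, 65986387 to 66286642, minus strand) and encodes a subunit that in neurons joins other KCNQ subunits in M channels. Its OHC values were 0 in 31 cells and 0.174 CPM, a single read, in OHC 13. In cIHCs, 56 cells had no read, and 7 cells lay well above the rest: cIHC 62 at 80.1 CPM, cIHC 4 at 76.8, cIHC 28 at 69.5, cIHC 44 at 53.2, cIHC 6 at 52.2, cIHC 66 at 36.01 and cIHC 47 at 31.2 CPM. The next cells were cIHC 7 at 9.24 CPM and cIHC 33 at 2.90 CPM, and cIHC 5 and cIHC 57 each had 1 read. The median of both groups was thus 0, and the groups overlapped in all cells without reads.

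Summed over cells, Kcnq3 went from 1 count in OHCs, 0.00413 CPM (exact Poisson interval 0.000105 to 0.0230), to 3536 counts in cIHCs, 6.50 CPM (6.29 to 6.72). The log2 ratio of the pooled levels, cIHC over OHC, was 10.62 with an exact conditional interval of 8.14 to 15.92, whose width comes from the single OHC read. Of the cIHCs, 16.4% had reads (exact Clopper-Pearson interval 8.49 to 27.5), or 15.2% after each cell was thinned to 5770000 reads. In 2144 pairs of 1 cIHC and 1 OHC, the cIHC was higher in 16.3% and the cells were tied in 81.0%. Of the Kcnq3 counts, 20.6% came from cIHC 62. Leaving out that cell and OHC 13 left no OHC read and a ratio of at least 8.69.

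The other genes of the 11 cIHCs with Kcnq3 reads were examined too, as a description, since these cells were picked by their reads. Their Tbx2 level ran from 163.4 to 2643 CPM, against 112.7 to 2643 CPM over all 67. Slc17a8, whose product loads glutamate into the synaptic vesicles of inner hair cells, ran from 697.7 to 1565 CPM. Reads of Ocm, the oncomodulin gene of OHCs, were present in 9 of the 11, at up to 313.1 CPM, and in 51 of all 67 cIHCs. The 11 cells had 7909 to 11719 genes with reads, and they included cIHC 33, the cell with the most.

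Most of the 7 cells with the highest Kcnq3 levels stood low in the summed level of 6 genes common to hair cells, whose median was 3627 CPM over the 67 cIHCs. The sum was 1235 CPM in cIHC 62, 1684 in cIHC 66, 1710 in cIHC 6, 1769 in cIHC 47 and 1958 CPM in cIHC 44. These 5 cells ranked 3, 6, 7, 8 and 11 of 67 from the lowest. The other two, cIHC 4 at 4231 CPM and cIHC 28 at 6034 CPM, ranked 44 and 64. Pooled, the sum of these 6 genes was itself lower in cIHCs, at 3588 CPM against 6895 CPM in OHCs. Otof encodes the calcium sensor of vesicle release at inner hair cell ribbons. It ranked 2 in cIHC 62, 8 in cIHC 47 and 11 in cIHC 44, and between 15 and 51 in the rest. By the summed level of 6 inner hair cell genes, cIHC 62 ranked 2, cIHC 44 6, cIHC 28 9 and cIHC 47 16. On that list cIHC 66 ranked 34, cIHC 6 39 and cIHC 4 51, so the 2 lists did not order the cells alike. The part of these differences in the Kcnq3 reads was not tested.

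Because the groups differed in sex-linked reads, Kcnq3 was also taken within cells with each kind of these reads. Of the 55 cIHCs with Xist at 10 CPM or more, 7 had Kcnq3 reads, 12.7% (5.27 to 24.5), with a pooled level of 5.33 CPM. Of the 12 cIHCs with Y-linked reads, 4 did, 33.3% (9.92 to 65.1), with a pooled level of 13.2 CPM. The intervals of the 2 shares overlap. Those of the 2 pooled levels do not, at 5.12 to 5.54 CPM with Xist reads and 12.44 to 14.04 CPM with Y-linked reads. The latter cover counting error of reads only, and the former treat each cell as a separate draw. A difference by sex was thus not tested. In OHCs, Kcnq3 had no read in the 4 cells with Xist reads and 1 read in the 24 with Y-linked reads.

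Kcnq1, the pore subunit of endolymph secretion, came from 1 cell of each group. It lies on chromosome 7 (143106362 to 143427042, plus strand). OHC 27 had 1 read, 0.137 CPM, and the other 31 OHCs had none. All 211 cIHC reads came from cIHC 62, at 23.1 CPM, the same cell that had the highest Kcnq3 level. The pooled level was 0.388 CPM (0.337 to 0.444) in cIHCs and 0.00413 CPM in OHCs, a log2 ratio of 6.55 (4.06 to 11.86) that rests on this cell. Without it no Kcnq1 read was left in the cIHCs.

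The cell cIHC 62 stood low both in the 6 genes common to hair cells and in inner hair cell genes. The summed level of 6 inner hair cell genes was 2170 CPM, second lowest of 67, where the group ran from 1731 to 9960 CPM. Otof stood at 380.3 CPM, also second lowest in the group. The summed level of 6 genes common to hair cells was 1235 CPM, with 2 cIHCs lower, while Tbx2 at 724.5 CPM lay above the group's median of 583.9 CPM. Its 8 supporting cell genes summed to 73.4 CPM, against a median of 0 and a maximum of 571.8 CPM in cIHCs. Its 7 genes of strial marginal cells summed to 85.4 CPM, below the cIHC median of 151.2 CPM. Of these 7 genes, Slc12a2 had a pooled cIHC level of 78.0 CPM, Wnk2 73.0 CPM and Shroom3 31.1 CPM. Over all cIHCs, Atp13a5 had 83 counts and Hmx2 had 2, and Lrp2 and Esrrb had none. The part of other cells in the Kcnq1 reads was not tested beyond these values.

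An antisense gene is annotated within Kcnq1. Kcnq1ot1, a long non-coding RNA known for imprinting at this locus, lies within Kcnq1 on the opposite strand (143203458 to 143296549), and 121 of the 4093 exon bases of Kcnq1 overlap it in GENCODE M21. Kcnq1ot1 had reads in 29 of 32 OHCs, with a median of 220.1 CPM and a maximum of 840.2 CPM, and in all 67 cIHCs, from 0.108 CPM through a median of 143.6 CPM to 714.2 CPM. The groups overlapped widely, and the pooled level was 249.2 CPM for OHCs against 174.4 CPM for cIHCs (log2 ratio -0.52). cIHC 62 had 124.9 CPM of Kcnq1ot1, within the range of the other cells. So 31 of 32 OHCs had no Kcnq1 read, although 29 of 32 had reads counted to the overlapping gene. Whether reads were counted by strand is not given in the sources used here, and reads in the 121 shared bases cannot be told apart. Kcnq1ot1 is annotated as 1 exon of 93092 bases. Without counting by strand, unspliced Kcnq1 reads in that stretch would also be counted to Kcnq1ot1.

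Kcnq5, another pore subunit of M channels, had no read in OHCs and 3 reads in cIHCs, all in cIHC 53, which is at the limit set for a count of 0. No ratio was formed. In OHCs a count of 0 allows up to 9.38% of cells with reads and a pooled level of up to 0.0124 CPM, and in cIHCs up to 4.48% of cells and 0.00551 CPM.

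Of the accessory subunits, Kcne3 alone had more than 3 counts. Kcne3 lies on chromosome 7 (100176502 to 100184869, plus strand), and its 2 upstream windows are printed above. No OHC had a read. Reads were found in 6 cIHCs, with cIHC 65 at 52.4 CPM, cIHC 7 at 37.7, cIHC 18 at 33.4, cIHC 27 at 5.04, cIHC 66 at 1.33 and cIHC 29 at 0.513 CPM. The first 3 cells held nearly all of the reads, and the other 61 cIHCs lay at 0, as did every OHC. The pooled cIHC level was 1.83 CPM (1.72 to 1.95) from 995 counts, and the share of cells 8.96% (3.36 to 18.5), or 9.09% after thinning. Against a floor of 3 counts over the OHC group the log2 ratio was at least 7.21. Leaving out the highest cell, which held 42.1% of the reads, gave at least 6.39.

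The Kcne3 cells also varied in their other genes. Their Tbx2 level ran from 112.7 CPM, the lowest of all cIHCs, in cIHC 18, to 1505 CPM in cIHC 29. cIHC 18 also had 663.0 CPM of Ocm, where the cIHC median was 14.7 CPM. The summed level of 8 blood and macrophage genes was 256.2 CPM in cIHC 27, 236.9 in cIHC 65 and 225.6 CPM in cIHC 29. It was 164.1 CPM in cIHC 66, 52.97 in cIHC 18 and 0 in cIHC 7. All but cIHC 7 lay above the cIHC median of 8.29 CPM, within a cIHC range of 0 to 336.9 CPM. The pooled sum was 51.4 CPM for cIHCs against 2.69 CPM for OHCs. C1qb made up most of that list in cIHCs, and C1qa, Cx3cr1, Lyz2 and Tyrobp were at 0 there. The part of these cells in the Kcne3 reads was not tested.

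An antisense gene that spans Kcne3 had reads in more cells than Kcne3 did. Gm34821, a gene of the opposite strand (100171416 to 100227207) chosen after its values were seen, shares 9 exon bases with Kcne3, at 100176568 to 100176576. It had no read in 32 OHCs and reads in 18 of 67 cIHCs, with a maximum of 30.3 CPM and a pooled level of 3.00 CPM (2.85 to 3.15). The log2 ratio was at least 7.92. Both genes had reads in 2 cIHCs, 16 had reads of Gm34821 alone, 4 of Kcne3 alone and 45 of neither. Xist reads were found in 17 of the 18 cells and Y-linked reads in the other. Gm27153, the antisense gene within Kcnq3, had no read in any cell.

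Kcne1 and Kcne4 had no read, and Kcne2, which is known with KCNQ1 in the gastric epithelium, had 1 read in cIHC 50. Kcne1, the partner of KCNQ1 in the stria, was thus missing also from cIHC 62, the cell with Kcnq1 reads. Among the 11 cIHCs with Kcnq3 reads, 2 had Kcne3 reads as well, cIHC 7 and cIHC 66. No cell had reads of both Kcnq1 and a KCNE gene.

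**Figure D2:**
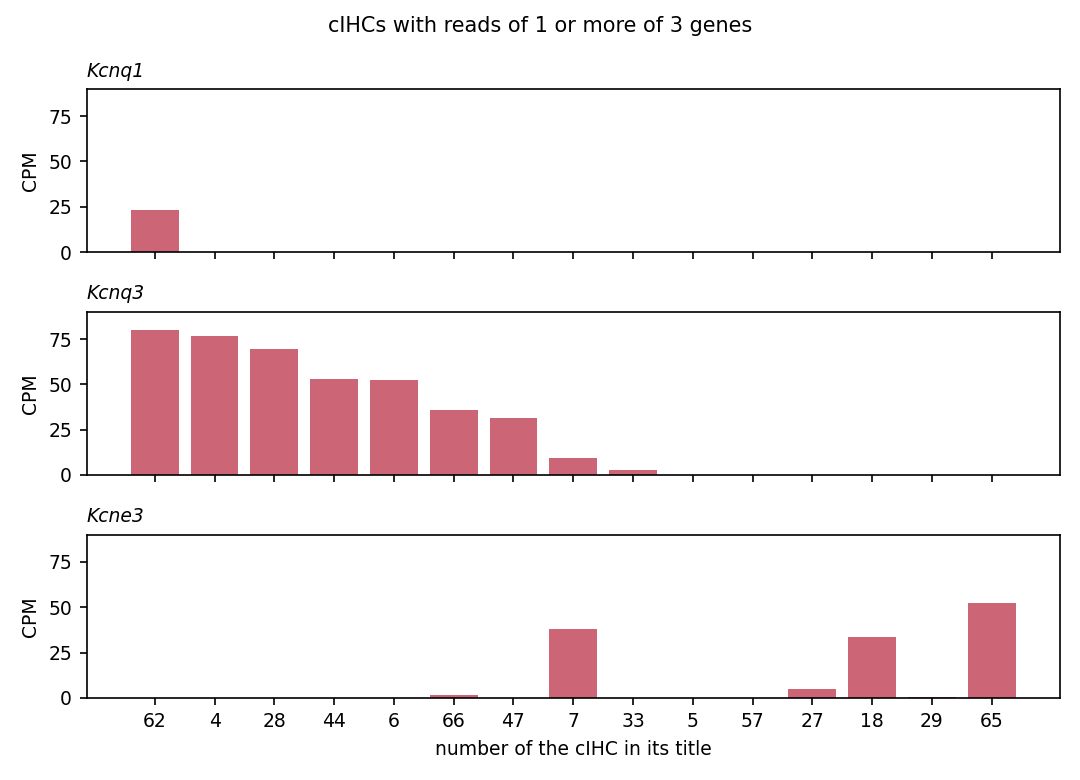
CPM of Kcnq1, Kcnq3 and Kcne3 in the 15 cIHCs with reads of 1 or more of them, ordered by Kcnq3; each bar is 1 cell, named by the number in its title, and all panels share 1 scale. The high Kcnq3 cells and the high Kcne3 cells are different cells, and the Kcnq1 reads stand in cIHC 62.

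Between the genes, levels were set side by side only after division by exon length. Per kilobase of annotated exon, the pooled cIHC level was 1.03 CPM for Kcne3, 0.442 for Kcnq3 and 0.0948 for Kcnq1. The order of Kcnq3 and Kcne3 is thus the reverse of that of their pooled CPM, because Kcnq3 has 14708 exon bases and Kcne3 has 1779. No member reached the 10 CPM in either group that the next comparison asks for.

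Members with a ratio were set against all genes. Of the 7, 3 had more than 3 counts in 1 of the groups, and all 3 had a log2 ratio of 1 or more. Of 23306 genes that could be tested in this way, 42.6% were as high and 18.8% had a ratio of -1 or less, with a median log2 ratio of 0.58. Kcnq1 and Kcnq3 had 1 OHC count each and Kcne3 had 0, so all 3 passed the count filter only through the cIHCs. Their direction was nearly set by that filter, and no result is read from it.

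Detection in few cells was also seen for other genes at such levels. Protein-coding genes within 2-fold of the pooled cIHC level of Kcnq3, 2309 in all, had reads in a median of 25.4% of cIHCs (10th to 90th percentile 11.9 to 44.8), against 16.4% for Kcnq3. Around the level of Kcne3, 1665 genes had a median of 8.96%, the same as Kcne3 itself. Around that of Kcnq1, 1024 genes had a median of 2.99%, against 1.49% for Kcnq1. These medians only describe the table.

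**Figure D3:**
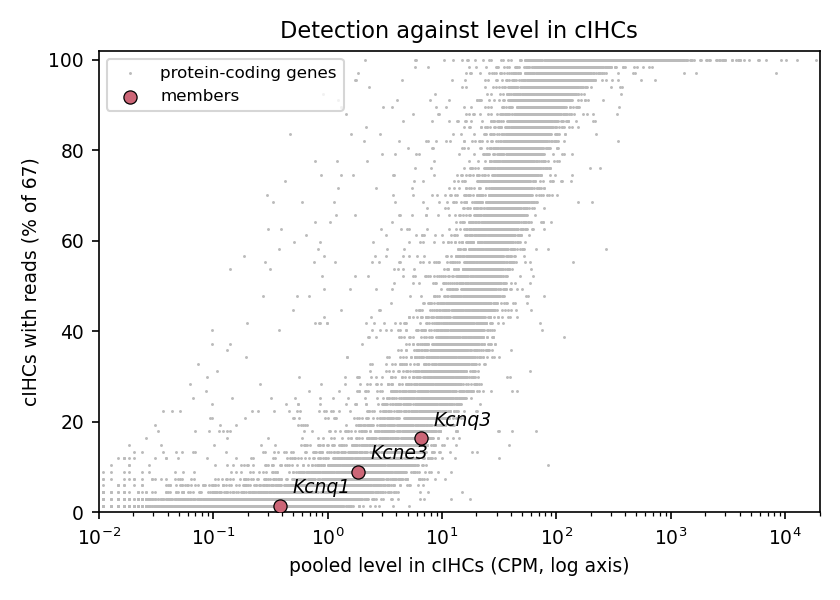
Share of the 67 cIHCs with reads against the pooled cIHC level on a logarithmic axis, for protein-coding genes at 0.01 CPM or more (grey) and for Kcnq1, Kcnq3 and Kcne3 (red). The 3 members lie within the band of genes of like level, at 1.49%, 16.4% and 8.96% of cells.

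Genes that regulate KCNQ channels were expressed far more widely than the channels themselves. Of 28 listed regulators, 24 reached 10 CPM in either group. Of these, 9 (37.5%) had a log2 ratio of 1 or more and 2 (8.33%) of -1 or less, where 26.3% and 14.3% of all 10041 genes at this level did. Their median was 0.49, against 0.25 over all those genes.

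Calmodulin, the calcium sensor bound to every KCNQ subunit, was abundant in both groups. Calm2 stood at 7614 CPM among OHCs and at 10222 CPM among cIHCs, for a log2 ratio of 0.42. The ratio of Calm3, 0.19, turned to -0.01 under median-of-ratios scaling.

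Of the anchoring proteins, Ank3 was higher in cIHCs. Ank3 encodes ankyrin-G, which holds KCNQ channels at the axon initial segment of neurons. It ran from 0 through a median of 24.1 to 323.6 CPM in OHCs and from 39.5 through 187.6 to 600.4 CPM in cIHCs, so the ranges overlapped, and in 87.9% of pairs the cIHC was higher. The pooled log2 ratio was 1.78. Akap9, the anchor of protein kinase A on KCNQ1, stood at 922.4 CPM among OHCs and at 632.7 among cIHCs, a ratio of -0.54.

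KCNQ channels need the membrane lipid PIP2, and its breakdown by phospholipase C closes them. Of 5 genes for its supply, 4 lay within 2-fold. The fifth, Pip5k1b, which encodes a PIP2-making kinase, had 7 counts over all OHCs, and 27 of 67 cIHCs had reads, at a pooled 22.4 CPM. Its log2 ratio was 9.60 (8.55 to 10.91), and 12.09 once OHC 15 and cIHC 45, which had the most, were left out and 1 OHC count remained. On the side of breakdown, Gnaq, the G protein subunit that activates phospholipase C beta, had pooled levels of 23.1 CPM (OHCs) and 65.3 CPM (cIHCs), with a ratio of 1.498. Plcb3 and Plcb4 lay within 2-fold, at -0.65 and 0.76, but Plcb4 had a ratio of 1.33 without OHC 7 and cIHC 47, its highest cells.

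The kinase Sgk1 and the ubiquitin ligase Nedd4l control how many channels stay at the surface, in opposite directions, and both genes were higher in cIHCs. Sgk1 ran from 0 through a median of 14.4 to 770.4 CPM in OHCs and from 65.3 through 782.4 to 2851 CPM in cIHCs. The cIHC was higher in 96.0% of pairs, and the pooled log2 ratio was 3.60, or 4.10 without the highest cells. Nedd4l had reads in 9 of 32 OHCs and 56 of 67 cIHCs, with pooled levels of 19.02 and 57.5 CPM and a ratio of 1.60, or 2.24 without OHC 20 and cIHC 8, the highest cells.

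The protein kinase A genes were divided. Prkaca, a catalytic subunit, had 42.2 CPM (OHCs) and 94.1 CPM (cIHCs), a ratio of 1.16 that was 0.96 under TMM scaling and 0.95 under median-of-ratios scaling. Prkacb, the other catalytic subunit listed, was lower in cIHCs, at 18.1 against 53.9 CPM and a ratio of -1.58. Prkar2a, a regulatory subunit, had a ratio of -1.01 that became -0.95 without OHC 11 and cIHC 24, the highest cells. Ppp1ca, a phosphatase that acts with the kinase on KCNQ1, had a ratio of 1.44. The exons of Ppp1ca overlap those of Rad9a on the other strand over 225 bases in GENCODE M21, so its value is uncertain.

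Slc5a3 and Stx1a, which encode proteins that bind KCNQ channels, were also higher in cIHCs. Slc5a3, the sodium and inositol cotransporter, had reads in 8 of 32 OHCs and 50 of 67 cIHCs, with pooled levels of 17.8 and 98.1 CPM and a log2 ratio of 2.46. It shares 159 exon bases with Mrps6 on the same strand. Stx1a, a syntaxin of vesicle fusion, had no read in OHCs and reads in 20 of 67 cIHCs, at 12.4 CPM pooled, a ratio of at least 9.97. Its highest cell was again cIHC 62, with 22.1% of the counts, and without it the pooled level was 9.83 CPM.

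**Figure D4:**
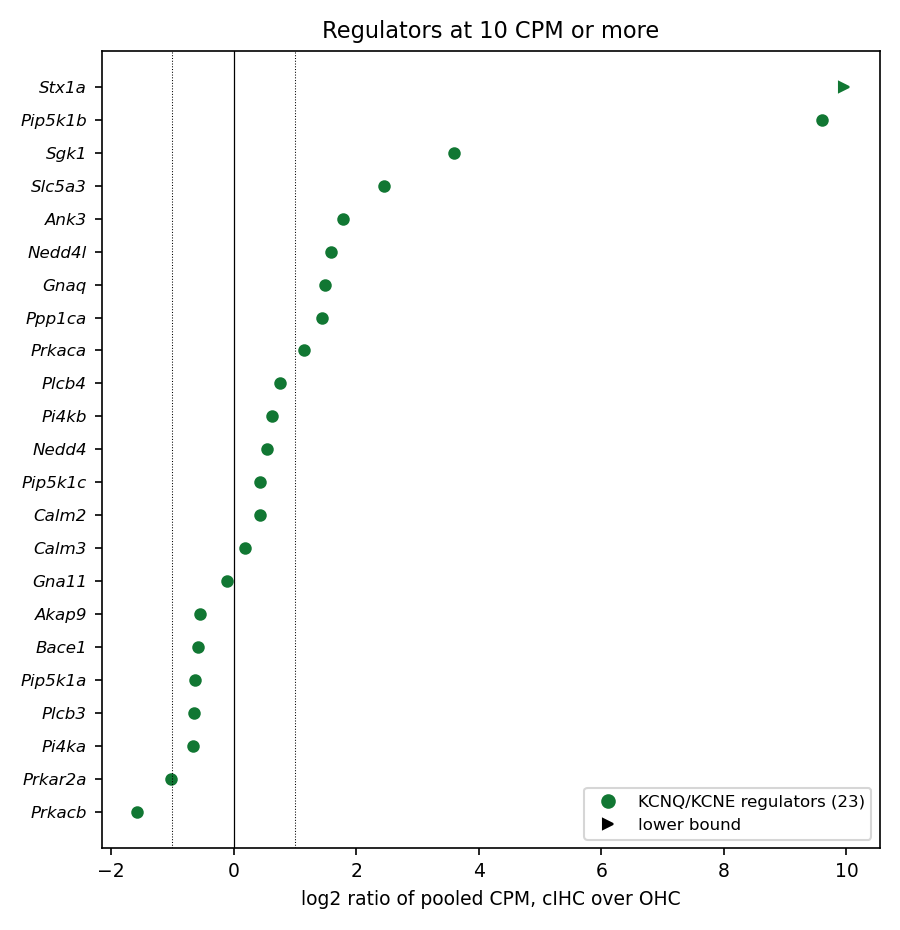
Log2 ratio of pooled CPM, cIHC over OHC, for 23 of the 24 regulators that reached 10 CPM in either group; each point is 1 gene, the triangle marks the lower bound of Stx1a, and dotted lines stand at -1 and 1. The points include 9 to the right of 1 and 2 to the left of -1.

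KCNE proteins also bind potassium and cation channels outside the KCNQ family. Of 9 such genes listed, 2 had at least 10 CPM. Kcnh2, the pore of the rapid delayed rectifier of the heart, had reads in 26 of 32 OHCs and 28 of 67 cIHCs, with pooled levels of 93.7 and 24.03 CPM and a log2 ratio of -1.96. Hcn2, a pacemaker channel, had 9.98 and 7.32 CPM. Per kilobase of exon, the pooled cIHC level of Kcnh2 was 4.96 CPM, above the 0.442 CPM of Kcnq3. Kcna3 and Kcnd2 had no read in any cell.

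Genes whose level follows that of a member from cell to cell were to be named only for a member detected in 25% or more of a group's cells. None of the 7 members reached this share, the highest being 16.4% for Kcnq3 in cIHCs, so no such gene is named.

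Markers of spiral ganglion neurons, which are known to express KCNQ channels, were measured too. The summed level of 7 spiral ganglion genes was higher in cIHCs, at a pooled 527.8 CPM against 255.6 CPM for OHCs. By cell it ran from 164.1 through a median of 537.2 to 878.6 CPM in cIHCs and from 0 through 232.2 to 910.1 CPM in OHCs. Of the neurofilament genes, Nefm had 19.2 CPM in OHCs against 176.1 in cIHCs, and Nefl 53.9 against 123.6 CPM. Snap25 had 182.4 and 216.9 CPM, and Tubb3 had 9 counts over all OHCs and 10.9 CPM over cIHCs, from 14 cells. Prph and Scn1a had no read in any cIHC and Nefh had 0.320 CPM. In the 7 cells with the most Kcnq3 the sum was 770.0 CPM (cIHC 62), 405.8 (cIHC 4), 784.4 (cIHC 28), 791.0 (cIHC 44), 552.5 (cIHC 6), 472.2 (cIHC 66) and 741.7 CPM (cIHC 47), so 5 of the 7 lay above the cIHC median. The part of neuronal RNA in the Kcnq3 reads was not tested.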

How the data were processed

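The authors deposited raw counts per gene and cell for 55291 genes and 99 cells. The submitters' processing notes name HISAT2 2.2.1, StringTie 2.2.1, featureCounts 2.0.1 and the build mm10. Annotation, strand setting and filters are not given in the sources used here. Each column was matched to a cell by its title. No pair of columns was identical, and cells differed beyond sampling noise, with chi-square values per degree of freedom from 416 up among OHCs and from 183 up among cIHCs. Doublets were not called, since cells were picked singly, and no cell was left out.

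Counts were summed per group, since the labels name no animal. A gene with at most 3 counts in both sums got no ratio, and a sum of 0 was set to 3 counts for a bound. Thinning left 29 OHCs and 66 cIHCs. Positions, exon lengths and overlaps come from GENCODE M21 (GRCm38), where 96.4% of the symbols were found and which may differ from what the authors used. Depth allows single reads to be seen in a cell but no spread between animals.

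The members, lists and rules were chosen with earlier results of these data known. Named regulators and partners are those with at least 10 CPM and a log2 ratio of 1 or -1 or beyond, and the 3 highest of each list, and some of these genes are not reported here. Marker lists covered outer, inner and common hair cell genes, marginal, supporting, glial, blood and neuronal genes. Summed over 5 glia genes the level was 14.3 CPM (OHCs) and 8.19 CPM (cIHCs), over 8 supporting cell genes 27.9 and 18.3 CPM, over 8 blood and macrophage genes 2.69 and 51.4 CPM, over 7 spiral ganglion genes 255.6 and 527.8 CPM, and over 7 marginal cell genes 189.1 and 182.2 CPM. The scripts were tested on simulated counts. Alternatives were other summaries, scalings, filters and subsets of cells. Tools were Python 3.11.15, numpy 2.4.6, pandas 2.3.3, scipy 1.17.1, matplotlib 3.10.9 and, for TMM factors, edgeR 4.0.16 in R 4.3.3.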

Additional observations from a re-analysis of the deposited data

How the results depend on the processing

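No paired analysis was possible because nothing was tested and no number in a title links an OHC to a cIHC. The cIHC numbers did run in blocks. Y-linked reads marked cIHC 1 to cIHC 12, and Xist reads marked cIHC 13 to cIHC 67. In the first block, Kcnq3 reads were in the neighbouring cIHC 4 to cIHC 7. What the numbers follow is not named in the labels. The log2 ratios of Kcnq1, Kcnq3 and Kcne3 were above 0 under every alternative that gave a value. Their OHC counts were 1, 1 and 0, so this sign was nearly set by the count filter and is no check of direction. TMM and median-of-ratios scaling moved the median of all genes by -0.19 and -0.20. Among cells with Xist reads, with 4 OHCs, the ratios were 3.72 for Kcnq1 and, as lower bounds, 5.68 for Kcnq3 and 3.87 for Kcne3. For Kcne3 the bound was 6.39 without the highest cell and 6.76 after thinning. Kcnq3 after thinning had no OHC read and a bound of 8.43. Kcnq1 had no value without the highest cells or among cells with Y-linked reads, Kcne3 none with the mean of CPM per cell because its OHC level is 0, and none of the 3 had one with the median of CPM per cell. The share of cIHCs at 10 CPM or more was 10.4% for Kcnq3 and 4.48% for Kcne3. At a call of 2 on the log2 scale, 4 regulators were higher and 0 lower, and of the other pore partners 0 were higher and 0 lower. With a filter of 1 CPM, 2 of the other pore partners were higher. With the mean of CPM per cell 1 regulator was lower, and 1 without the highest cell of each gene, an alternative chosen after seeing the data. Under TMM 8 regulators were higher. The shares of all genes under these alternative settings are not given here, so no result is read from these counts. The correlation of members with other genes was not run, because no member reached its minimum share of cells. At this depth a gene with 0 reads may still be present below the limits given for a count of 0.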
